A study of Mus musculus with 6 samples.

Results

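The members are 10 genes that restrain mitogen-activated protein kinase (MAPK) signaling, namely the phosphatase genes Dusp1, Dusp2, Dusp4, Dusp5, Dusp6, Dusp10 and Dusp16 and the inhibitor genes Spry1, Spry2 and Spred1. They were picked by symbol, but with earlier results of these data known, and all 10 were among the 16254 genes of the count table. RNA was sequenced from mouse bone marrow-derived eosinophils, genotype C57BL/6, that had been cultured for 24 h with extracellular vesicles (EVs) of TH2 cells at 5e9 EVs/ml (3 libraries, EV-treated) or with an equal volume of medium that had met no cells and went through the same purification (3 libraries, labelled Media and called sham-treated here). Per the study's methods, all cells had been grown from marrow with FLT3 ligand and stem cell factor and then with IL-5, and the EVs came from TH2 cells restimulated through the T-cell receptor. The labels call the libraries biological replicates without saying which animals they came from, so the p-values measure the spread between these libraries, which may be technical in part. The estimated counts summed to between 23697620 and 37874426 per library. At these totals counting error is smallest for Dusp1, Dusp5 and Dusp6, which have the most counts, and largest for Dusp10 and Spry1, which have the fewest.

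MAPK pathways carry signals from cytokine, antigen and growth factor receptors through chains of kinases that end in ERK, JNK or p38. A MAPK phosphatase removes the phosphates from both the threonine and the tyrosine of the kinase's activation loop, and many of these phosphatase genes are themselves switched on by the pathway they shut off. Sprouty and Spred proteins act further up, between the receptor and Raf. Eosinophils use these pathways in their responses to IL-3, IL-5 and GM-CSF, which share the common β chain of their receptors.

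Dusp1, Dusp5 and Dusp6 rose in EV-treated eosinophils, each to about the same extent, and Dusp2 and Dusp4 fell by more. Spry2 lay just outside the threshold and Dusp16 further outside it, and Dusp10, Spry1 and Spred1 did not pass it either. In numbers, 3 members were higher and 2 were lower at an adjusted p under 0.01 (edgeR's quasi-likelihood test with Benjamini-Hochberg adjustment over 13498 genes). Over all genes tested, 12.1% were higher and 11.6% were lower at that threshold, or 23.7% in either direction. With a change of at least 2-fold required as well, 2 members were higher and 2 were lower, against 3.1% and 6.35% of all genes. Dusp5, at 0.997 on the log2 scale, lay just under that limit. All 10 members passed the filter on low counts. Positions given with each gene are those of its longest coding transcript in GENCODE vM21 (GRCm38), and the count table itself holds no coordinates. The median log2 fold change was 0.01 over the members and -0.01 over all genes. The median size of the change, sign ignored, was 1.12 on the log2 scale for the members and 0.30 for all genes. The EV-treated libraries did not overlap the sham-treated ones for 7 members, 4 above and 3 below, where 24.8% of all genes lay above, 24.7% below and 49.6% in either direction. For a single gene, an exact permutation test of 3 against 3 libraries cannot give a p under 0.1, so the tests rest on the spread shared across genes.

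**Figure D1:**
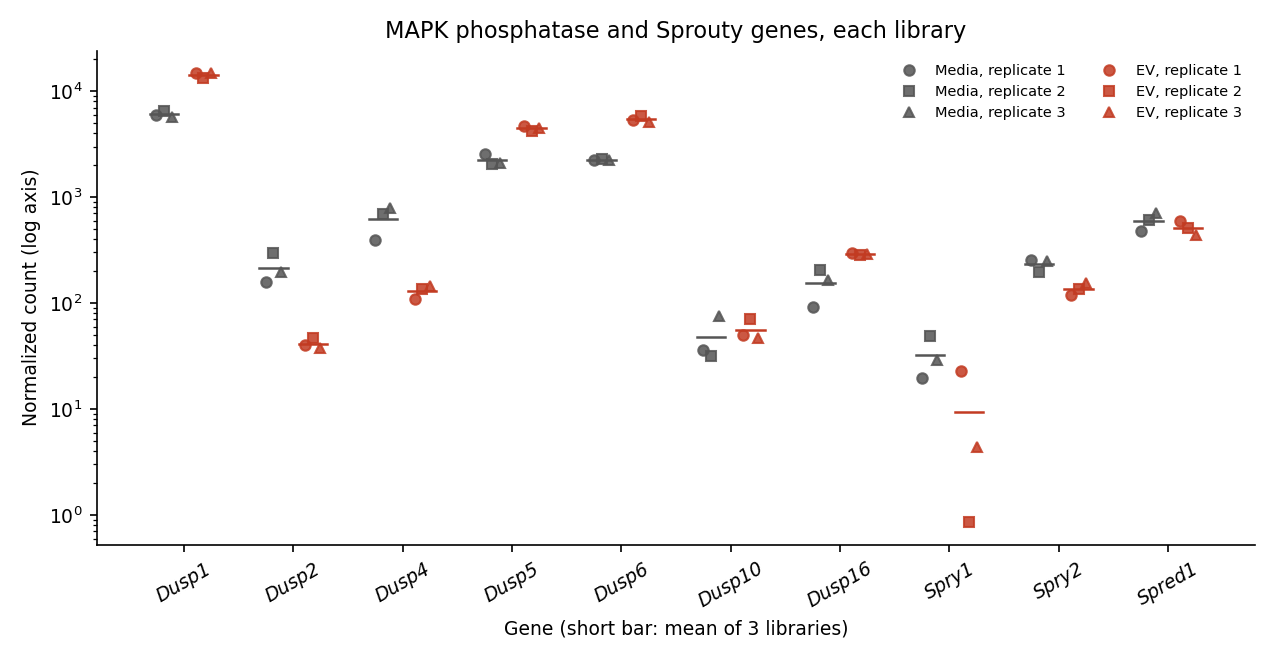
Normalized counts of the 10 members in every library (log axis), with sham-treated libraries in grey, EV-treated libraries in red, a marker shape for each replicate number and a short bar at each mean. The EV-treated libraries lie above all sham-treated ones for Dusp1, Dusp5, Dusp6 and Dusp16 and below them for Dusp2, Dusp4 and Spry2, and the groups overlap for Dusp10, Spry1 and Spred1.

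Dusp1 (chr17:26505590-26508519, minus strand) encodes a nuclear phosphatase of p38, JNK and ERK and is an immediate-early gene. Its normalized counts, which are counts scaled for library size and composition, were 5888, 6517 and 5639 with sham and 14753, 13310 and 14753 with EVs, in the order of the replicate numbers, an order kept for every gene. The lowest EV-treated library lay well above the highest sham-treated one. Mean levels were 6015 ± 453 with sham and 14272 ± 833 with EVs (SD, n = 3 each). The rise was 1.25 on the log2 scale (SE 0.0715, adjusted p = 9.71e-07, edgeR), or 2.37-fold.

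Dusp6 (chr10:99263231-99267488, plus strand) encodes a cytoplasmic phosphatase with a strong preference for ERK, and its transcript is widely used as a readout of ERK activity. It had 2215, 2271 and 2228 normalized counts in the sham-treated libraries, the group with the smallest SD relative to its mean, and 5351, 5858 and 5073 in the EV-treated libraries. No EV-treated library came near the sham-treated range. Dusp6 rose by 1.28 on the log2 scale (SE 0.0692, adjusted p = 7.02e-07, edgeR), or 2.43-fold.

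Dusp5 (chr19:53529109-53542431, plus strand) encodes a nuclear phosphatase that acts on ERK and not on the other kinases. It had 2543, 2048 and 2087 normalized counts with sham and 4686, 4213 and 4448 with EVs. The groups were well apart, although sham replicate 1 lay above the other two. Dusp5 rose by 0.997 on the log2 scale (SE 0.0906, adjusted p = 1.82e-05, edgeR), at the edge of the 2-fold limit and just under it. In the GENCODE vM21 annotation, 547 bases of the Dusp5 transcript overlap exons of a gene on the other strand, and 21.2% of the 31-base words of Dusp5 occur there. Reads from that stretch are uncertain, since the sources used here do not say whether strand was used in counting.

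The stretches before the starts of these 3 genes are shown because the genes moved together while their sequences differ. Each line runs 5′ to 3′ on the gene's own strand, from 200 to 51 bases before the RefSeq start of the gene (RefSeq, GRCm38.p6), at chr17:26508523-26508672 on the minus strand for Dusp1, chr19:53528945-53529094 on the plus strand for Dusp5 and chr10:99263031-99263180 on the plus strand for Dusp6. Capitals mark the motifs found.
Dusp1: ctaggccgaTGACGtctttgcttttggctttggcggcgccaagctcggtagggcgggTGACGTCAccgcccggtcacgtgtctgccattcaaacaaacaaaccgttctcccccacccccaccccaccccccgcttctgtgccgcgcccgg
Dusp5: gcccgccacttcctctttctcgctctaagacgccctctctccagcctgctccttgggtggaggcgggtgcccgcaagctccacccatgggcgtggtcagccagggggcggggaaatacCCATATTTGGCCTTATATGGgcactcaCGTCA
Dusp6: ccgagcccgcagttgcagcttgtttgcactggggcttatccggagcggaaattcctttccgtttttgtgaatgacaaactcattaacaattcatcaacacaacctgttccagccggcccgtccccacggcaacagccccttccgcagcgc

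The capitals in Dusp1 are the cAMP response element TGACGTCA at -143 to -136 and a separate copy of its core, TGACG, at -191 to -187. Those in Dusp5 are a pair of CArG boxes end to end, at -82 to -73 and -72 to -63, followed by the core read on the other strand as CGTCA at -55 to -51. The CArG box is the site that serum response factor is known to bind, and the cAMP response element that of CREB. Dusp6 had no match in this window. Motifs were searched on both strands in 300-base promoters, of which RefSeq gave 9 for the members and none for Dusp4. The whole cAMP response element was in 1.79% of 32841 promoters, its core, which the whole element contains, in 20.8%, and a CArG box in 1.63%. Among the 9 members with a promoter, the whole element was in 1, a CArG box in 1 and the core in 4, Dusp2 and Dusp16 besides Dusp1 and Dusp5. The ETS core CCGGAA was in 1, Spry2, and in 14.9% of all promoters. The AP-1 site TGACTCA, the STAT site TTCNNNGAA, the EGR site GCGTGGGCG and the TATA box TATAAA were in none of the 9, against 5.2%, 8.3%, 0.612% and 13.6% of all promoters. A match of letters is a description, and no match says only that the letters are not in this window.

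Dusp2 (chr2:127336159-127338376, plus strand) encodes a nuclear phosphatase that was first known from activated lymphocytes and acts on ERK and p38. Its normalized counts were 158, 294 and 194 in the sham-treated libraries and 40.0, 46.3 and 37.4 in the EV-treated ones. The EV-treated libraries were close to each other and all far below the lowest sham-treated library. Means were 215 ± 70.6 with sham and 41.2 ± 4.56 with EVs (SD, n = 3 each). Dusp2 was 5.20-fold lower, which is -2.38 on the log2 scale (SE 0.293, adjusted p = 0.000141, edgeR).

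Dusp4 (chr8:34807297-34819894, plus strand) encodes a nuclear phosphatase of ERK and JNK that is itself an ERK-responsive gene in many cells. It had 389, 692 and 793 normalized counts with sham and 109.9, 135 and 146 with EVs. The groups did not overlap, and sham replicate 1 lay nearest to the EV-treated libraries. Dusp4 was 4.78-fold lower, which is -2.26 on the log2 scale (SE 0.257, adjusted p = 8.36e-05, edgeR). It was -2.50 without sham replicate 1, the value farthest from 0 of any with 1 library left out. Dusp4 and Dusp6 thus moved in opposite directions in the same libraries.

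Both falls went along with a fall in macrophage genes. Of the 10 genes of a macrophage list, 8 fell, with log2 fold changes between -2.87 and -1.31, 1 rose (Adgre1) and Mrc1 was not called. Over all genes tested, 11.6% were lower. The summed level of the whole list was between 45271 and 61815 normalized counts with sham and between 40734 and 45531 with EVs. Adgre1, which eosinophils are known to express too, held between 21095 and 33532 of these in each library. On the whole list the groups thus overlapped. The 8 that fell include Csf1r, Cd68 and the complement genes C1qa, C1qb and C1qc. They summed to 23211, 39226 and 36016 normalized counts with sham and 7389, 10037 and 10150 with EVs. These 8 were picked by their fall in these same libraries, so the drop of their sum follows from that choice. None of the list was at 0. Sham replicate 1 was the lowest sham-treated library for 9 of these 10 genes, as it was for Dusp2 and Dusp4, and EV replicate 1 was the lowest EV-treated library for 10 of them, as it was for Dusp4. Dusp2 was lowest in EV replicate 3 of the EV-treated libraries. Spry2 was highest in sham replicate 1 of the sham-treated libraries and lowest in EV replicate 1 of the EV-treated ones. The part of these genes in the falls of Dusp2 and Dusp4 was not tested. In bulk RNA, fewer cells of a type and less RNA per cell cannot be told apart.

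**Figure D2:**
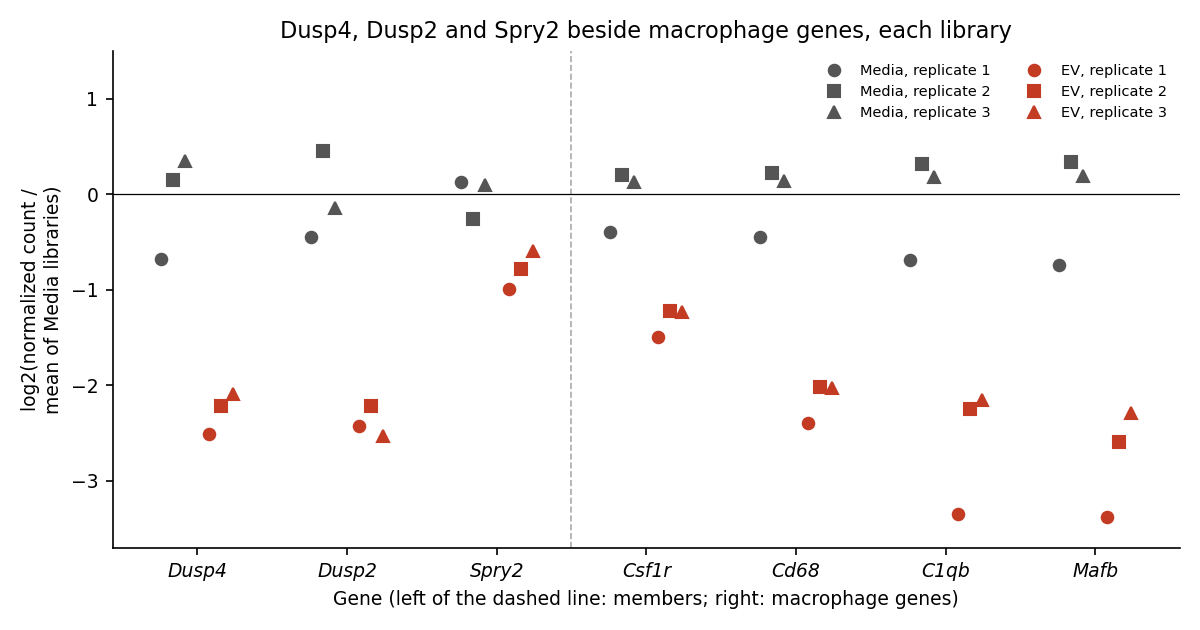
Level of Dusp4, Dusp2 and Spry2 (left of the dashed line) and of 4 macrophage genes (right) in every library, as log2 of the normalized count over the mean of the 3 sham-treated libraries, with sham in grey and EV in red. Dusp4 and Dusp2 fell to about the same extent as Cd68, Spry2 by less, and sham replicate 1 (grey circles) lies lowest of the sham-treated libraries for all of these except Spry2.

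The eosinophil label was borne out by its markers. All 12 eosinophil genes were detected, Prg2 and Epx among them, and the list summed to between 942207 and 1186850 normalized counts with sham and between 1344100 and 1501580 with EVs, with 8 genes higher and 0 lower (edgeR). That rise went along with the rises of Dusp1, Dusp5 and Dusp6, and its part in them was not tested. Of 6 basophil and mast cell genes tested, 4 rose, and Kit and Fcer1a were not called. The list summed to between 4101 and 5233 with sham and between 9891 and 11712 with EVs. Its largest part was Gata2, at 2464 ± 194 with sham and 5187 ± 273 with EVs (SD, n = 3 each). The part of the basophil and mast cell genes in the rises of Dusp1, Dusp5 and Dusp6 was not tested either. Neutrophil genes went both ways, with 2 higher and 4 lower of 9 tested. The shares to set beside each of these lists were 12.1% higher and 11.6% lower over all genes tested. T-cell genes summed to between 350 and 858 with sham and between 92.9 and 186 with EVs, and of the 3 tested Cd28 fell. Most of that sum with sham was Cd28. Cd3d had 31.5, 71.1 and 12.2 normalized counts with sham and 27.97, 66.0 and 51.4 with EVs, with the groups overlapping. Il2ra had 13.5, 12.3 and 27.9 with sham and 26.0, 60.0 and 53.1 with EVs, also overlapping. Its difference of 1.37 on the log2 scale was not called (adjusted p = 0.0968, edgeR). Of the genes too low to test, Cd4 reached 34.3, Lck 20.8, Trac 15.8 and Cd3g 3.68 in the highest sham-treated library, and 0.87, 2.61, 4.995 and 6.0 in the highest EV-treated one. Cd5 and Thy1 were at 0 in every sham-treated library and reached 0.857 and 2.57 with EVs. Of the B-cell and dendritic cell genes, 3 of each were tested and 0 were called.

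Dusp10 (chr1:184034381-184075636, plus strand) and Dusp16 (chr6:134715473-134792625, minus strand) encode phosphatases that act on JNK and p38 in preference to ERK. Dusp16 had 91.0, 207 and 166 normalized counts with sham and 299.7, 282 and 291 with EVs. The groups did not overlap, the EV-treated libraries were within a narrow range and sham replicate 1 was the lowest. The difference of 0.92 on the log2 scale (SE 0.267, adjusted p = 0.0226, edgeR) did not pass. It passed with DESeq2 (adjusted p = 0.00668), with limma-voom (0.00795) and without sham replicate 2 (0.00755). Without sham replicate 1 it was 0.65 on the log2 scale (adjusted p = 0.0155, edgeR), and without sham replicate 2 it was 1.19. Without EV replicate 1, 2 or 3 the adjusted p was 0.0567, 0.0582 and 0.0676 in turn (edgeR).

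Dusp10 had 36.0, 31.9 and 75.3 normalized counts with sham and 49.95, 71.1 and 47.0 with EVs. The groups overlapped widely. The difference of 0.23 on the log2 scale was smaller than its SE of 0.454 (adjusted p = 0.73, edgeR), and the sham-treated libraries alone spread over more than 2-fold.

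Spry2 (chr14:105891947-105896819, minus strand), whose product holds back receptor signaling to Ras and Raf, had 256, 196 and 250.3 normalized counts with sham and 118, 136 and 155 with EVs. The groups did not overlap. The difference was -0.78 on the log2 scale (SE 0.201, adjusted p = 0.0125, edgeR), just outside the threshold. It passed with DESeq2 (adjusted p = 0.00804), without TMM scaling (0.00438) and without sham replicate 2 (0.00721).

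Spry1 (chr3:37640080-37644598, plus strand), its close relative, was the least expressed member, with 19.8, 49.0 and 29.2 normalized counts with sham and 22.98, 0.857 and 4.35 with EVs. Of the EV-treated libraries, replicate 1 lay within the sham range and the other two lay below it, at 1 and 5 counts. The difference of -1.80 on the log2 scale had an SE of 0.952 (adjusted p = 0.175, edgeR). It was -3.58 without EV replicate 1 (adjusted p = 0.0402, edgeR) and -1.25 without EV replicate 2, and it passed in none of the alternatives run. In the GENCODE vM21 annotation, 577 bases of the Spry1 transcript overlap exons of Gm42922 on the other strand, so that part of these few reads is uncertain.

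Spred1 (chr2:117121374-117182279, plus strand) encodes a protein that brings neurofibromin to the membrane, where it switches Ras off. It had 476, 604 and 699.9 normalized counts with sham and 588, 507 and 443 with EVs. The groups overlapped, with a difference of -0.21 on the log2 scale (SE 0.163, adjusted p = 0.362, edgeR).

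**Figure D3:**
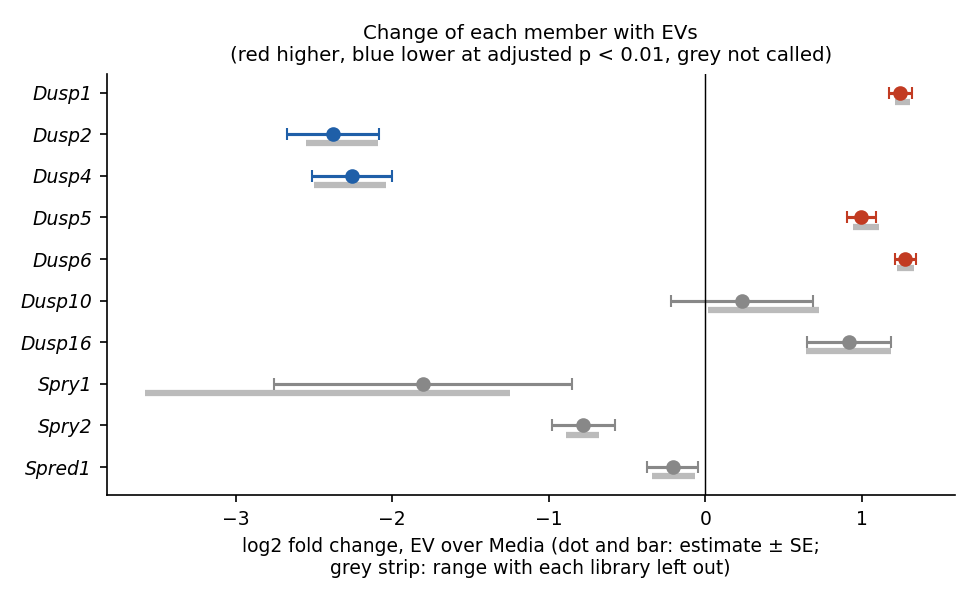
Log2 fold change of each member, EV-treated over sham-treated, with bars of 1 standard error and a grey strip for the range with each of the 6 libraries left out in turn. Dusp1, Dusp5 and Dusp6 (red) lie between 0.997 and 1.28 with short bars, Dusp2 and Dusp4 (blue) lie near -2.3, and the strip of Spry1 is the longest.

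Per kilobase of the longest coding transcript, Dusp1 was the most abundant member in both groups, at 3023 ± 228 (SD, n = 3) normalized counts per kilobase with sham and 7172 ± 419 (SD, n = 3) with EVs. Dusp5 and Dusp6 followed, at 900.1 ± 111 and 800.4 ± 10.5 with sham and 1799 ± 95.6 and 1941 ± 142 with EVs (SD, n = 3). With sham their means differed by less than 1 SD of Dusp5, though Dusp5 lay above Dusp6 in every library (lowest 828.1, highest of Dusp6 812.2). With EVs they overlapped. Next with sham came Dusp4 at 228 ± 76.8, Dusp2 at 133 ± 43.7, Spry2 at 112 ± 15.8 and Spred1 at 98.6 ± 18.7, and the libraries of each overlapped those of the next. With EVs the order of these changed, with Spred1 at 85.2 ± 12.1, Spry2 at 65.3 ± 8.87, Dusp16 at 57.0 ± 1.74, Dusp4 at 47.5 ± 6.77 and Dusp2 at 25.5 ± 2.82. There Spred1, Spry2 and Dusp16 overlapped each with the next, while Dusp4 lay below Dusp16 and Dusp2 below Dusp4 in every library. Dusp16 had 30.3 ± 11.5 with sham. Dusp10, at 17.1 ± 8.59 and 20.1 ± 4.72, and Spry1, at 11.8 ± 5.38 and 3.39 ± 4.29, were lowest, and overlapped with each other in the sham group. The 10 members together came to between 5191 and 5614 normalized counts per kilobase in the sham-treated and between 10800 and 11530 in the EV-treated libraries. Dusp1, Dusp5 and Dusp6 made up between 86.2% and 90.9% of that sum with sham and between 97.1% and 97.4% with EVs. Dusp2 and Dusp4 made up between 4.56% and 7.89% with sham and between 0.562% and 0.72% with EVs. These are levels relative to transcript length and not to protein.

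The members differ in the AU-rich pentamer ATTTA, a letter pattern known from short-lived transcripts. The 3′ UTR of Dusp1, of 690 bases, held 4 copies or 5.8 per kilobase, and that of Dusp2, of 581 bases, held 4 or 6.89 per kilobase, where the median over 12095 genes was 1.31. Dusp5 and Dusp6 held 1 copy each. The longer pattern TATTTAT was in 5 of the 10 members (3 copies in Dusp1, 1 in Dusp2, 2 in Spry1, 2 in Spry2 and 3 in Spred1) and in 30.4% of all genes. Members with and without it were found among both those that rose and those that fell.

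Of the other MAPK phosphatase, Sprouty and Spred genes, 5 could be tested. Spred2, a relative of Spred1, had 1031 ± 129 normalized counts with sham and 1705 ± 28.7 with EVs (SD, n = 3 each), a rise of 0.72 on the log2 scale (adjusted p = 0.000214, edgeR). The remaining 4 were not called, with differences of -0.43 for Dusp7, -3.65 for Dusp9 (adjusted p = 0.0132, edgeR, at 33.1 normalized counts or fewer in any library), -0.83 for Spry4 and -0.41 for Spred3 on the log2 scale. Of the atypical dual-specificity phosphatases and their relatives, 13 could be tested, of which 1 rose and 2 fell (12.1% and 11.6% of all genes). Dusp3, which can act on ERK and JNK, had 1644 ± 473 normalized counts with sham and 291 ± 41.8 with EVs (SD, n = 3 each), which is -2.49 on the log2 scale (adjusted p = 1.16e-05, edgeR), and Dusp22 fell by 2.29 on the log2 scale (adjusted p = 0.0003, edgeR). Ssh1, a slingshot phosphatase of cofilin and not of MAPKs, rose by 0.53 on the log2 scale. The macrophage genes fell in the same libraries as Dusp3 and Dusp22, as given above, and their part in these falls was not tested either.

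Other brakes on Ras and MAPK signaling went both ways, with 7 of 21 tested higher and 4 lower (12.1% and 11.6% of all genes tested). Dok2, an adaptor that restrains Ras, rose by 0.90 on the log2 scale, and the phosphatases Ptpn6 and Ptpn7 rose by 0.65 and 0.46. Rasa2, a GTPase-activating protein of Ras, rose by 0.60. Dok1 fell by 0.76 on the log2 scale, Pebp1, which binds Raf, fell by 0.68, Nf1, the neurofibromin gene, fell by 0.53 and Cblb, a ubiquitin ligase, fell by 0.34. The median of this list was -0.03 (-0.17 without TMM, the library scaling used here).

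Of the 27 genes of the Ras-ERK cascade, 10 were higher and 4 were lower (12.1% and 11.6% of all genes tested), with a median of 0.11. Rasgrp4, a Ras activator of myeloid and mast cells, had 13680 ± 1460 normalized counts with sham and 31610 ± 2282 with EVs (SD, n = 3 each), a rise of 1.21 on the log2 scale (adjusted p = 3.15e-06, edgeR). Basophil and mast cell genes rose in the same libraries, and their part in the rise of Rasgrp4 was not tested. The scaffold gene Ksr1 rose by 0.92 and the Ras-family activator gene Rasgrp2 by 0.37. The adaptor gene Gab1 and the Ras activator gene Rasgrp3 fell by 2.75 and 2.61 on the log2 scale, the kinase gene Rps6ka2 by 0.59 and Braf by 0.45. These counts moved with scaling. Without TMM the median of all genes shifted to -0.16 (from -0.01), calls over all genes became 1036 higher and 2342 lower (1632 and 1572 with TMM), and of this list 2 were higher and 5 were lower with a median of -0.03. None of its called genes changed sign. Of the 24 genes tested of the JNK and p38 cascades, 6 were higher and 1 was lower (12.1% and 11.6% of all genes). The median was 0.12. Without TMM 4 were higher and 2 were lower, with a median of -0.02. Mapk13 and Mapk14, which encode p38 kinases, rose by 1.26 and 0.53, Map2k4, which activates JNK, rose by 1.04 and Tab2 by 0.41, while Map3k1 fell by 0.82 on the log2 scale.

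Of the 25 tested genes known to respond to ERK, 14 were higher and 2 were lower (12.1% and 11.6% of all genes). Their median log2 fold change was 0.73 (0.58 without TMM). Hbegf, an epidermal growth factor family ligand, had 20.5 ± 14.3 normalized counts with sham and 286 ± 43.6 with EVs (SD, n = 3 each), a rise of 3.74 on the log2 scale (adjusted p = 5.22e-05, edgeR). The cytokine gene Lif rose by 2.64, the transcription factor gene Egr3 by 2.47 and Ier3 by 2.27. Ccnd1 and Fos fell by 1.93 and 0.97 on the log2 scale. Ccnd1, like Gab1 of the cascade, was lowest in sham replicate 1 and in EV replicate 1 of each group, as most of the macrophage genes were, and Rasgrp3 was lowest in sham replicate 1. The part of the macrophage genes in the falls of Ccnd1, Gab1 and Rasgrp3 was not tested. Some of these genes respond to other pathways too, and the list was written with earlier results of these data known.

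**Figure D4:**
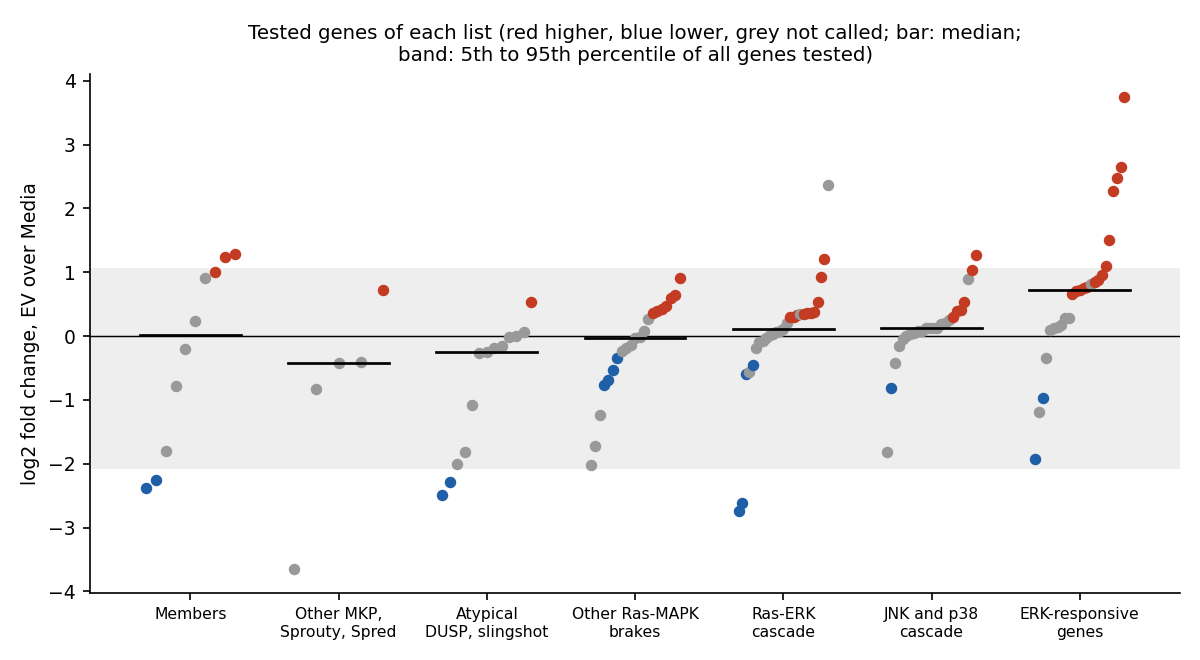
Log2 fold change, EV-treated over sham-treated, of every tested gene of the members and of 6 related lists, each dot a gene, with a bar at each list's median and a grey band from the 5th to the 95th percentile of all genes tested. Red dots are higher and blue dots lower at an adjusted p under 0.01. The ERK-responsive genes sit highest, with a median of 0.73, and the members are spread from -2.38 to 1.28.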

How the data were processed

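Estimated counts per gene symbol were analysed for 3 sham-treated and 3 EV-treated libraries, grouped by their titles. The authors checked reads with FastQC, trimmed them with Cutadapt, estimated counts with Salmon and deposited these expected counts, which need not be whole. Their processing notes name mm10, and versions, annotation and strandedness are not given in the sources used here. The authors' normalized counts and their own comparison (log2 fold changes and p-values) were not used. Counts were rounded, scaled by TMM, filtered with filterByExpr and tested with edgeR 4.0.16 in R 4.3.3 over 13498 genes, without a replicate block. The SE was taken as the size of the log2 difference over the root of the F statistic. A gene was called at an adjusted p under 0.01. Normalized counts are relative to the geometric mean library. DESeq2 1.42.0 and limma 3.58.1 gave alternatives. The tests were run first on simulated counts. The members and lists were chosen with earlier results of these data known. All members were named, and of each other list the called genes that changed most, at most 4 in each direction, except 1 that is not reported here. Transcript lengths, 3′ UTRs and shared 31-base words came from GENCODE vM21 (GRCm38), promoters from RefSeq (GRCm38.p6). Coordinates are from these references.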

Additional observations from a re-analysis of the deposited data

How the results depend on the processing

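Over 14 alternatives (8 other settings and 6 that left out a library), the counts of called members stayed within 1.5 times of 3 higher and 2 lower, and no member changed sign. Dusp1, Dusp2, Dusp4, Dusp5 and Dusp6 stayed called in all 14. Of these, the adjusted p under 0.05 was the same fit at a looser threshold, where no call could be lost. Log2 fold changes lay between 1.10 and 1.31 for Dusp1, 1.13 and 1.33 for Dusp6 and 0.85 and 1.11 for Dusp5. Dusp16 became called in 5 of the 14 and Spry2 in 4. Each count includes the looser threshold, which the edgeR adjusted p of the main fit (0.0226 and 0.0125) already passed. The cause in the other settings was not tested. DESeq2 called 4 members higher and 3 lower, or 3 and 2 past 2-fold. Past 2-fold, 3 were also higher with DESeq2 size factors in edgeR, without the filter on low counts and with limma-voom. The same held without sham replicate 1, sham replicate 2, EV replicate 2 or EV replicate 3. The added member was Dusp16 with limma-voom and without sham replicate 2, and Dusp5 in the others. Over all genes, 1632 were higher and 1572 lower, against 1968 and 1942 with DESeq2, 1036 and 2342 without TMM, 2362 and 2478 at an adjusted p under 0.05, and 1071 and 1018 without EV replicate 3, the fewest with any library left out (1113 and 1044 without EV replicate 2). Without TMM, the median of all genes moved to -0.16 and the share of called genes that were higher from 50.9% to 30.7%. Same-numbered libraries correlated in their deviations from the group means, across genes, by 0.0371 to 0.117, and 5 of the 6 libraries correlated best with their own number. The labels name no pairs, and the lowest of these correlations was under the minimum of 0.1 used here. For these reasons the numbers were not taken as pairs, although the best matches leave pairing possible. With the replicate number as a block, 4 members were higher and 2 lower (3 and 2 past 2-fold, Dusp5 then at 1.00 on the log2 scale), Dusp16 being added (log2 fold change 0.98, adjusted p = 0.00422), and no other member's call changed. For Dusp10 and Spry1 the SE (0.454 and 0.952) is large beside a 2-fold change, and Spry1 rests on 1 and 5 counts in a pair of libraries.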
